A study of Mus musculus with 15 samples.

Results

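The transcriptomes described here are those of P14 CD8+ T cells activated for 24 h while the kinase p110δ was inhibited, set against naïve cells from the same kind of mouse. The comparison rests on 3 libraries of cells activated with the inhibitor (TCR+PI3Kdi) and 3 libraries of naïve cells, 6 of the 15 libraries in the series, and covers all 11262 genes of the deposited table. Another 3 libraries, of cells activated without the inhibitor (TCR), served to say how far each gene had travelled. P14 mice carry a transgenic T cell receptor (TCR) for the lymphocytic choriomeningitis virus peptide gp33–41, so that nearly all their CD8+ T cells can be triggered by 1 antigen. Females aged 9 to 13 weeks gave lymph node cells, and each replicate was a pool from 3 mice that was split between the conditions. Naïve cells were sorted ex vivo as live TCRβ+ CD8+ cells with a naïve surface phenotype that included low CD44. For activation, cells spent 24 h in culture with the peptide at 100 ng/ml, together with the cytokines IL-12 (2 ng/ml) and IL-2 (20 ng/ml) and either the vehicle DMSO or the p110δ inhibitor IC87114 at 10 µM, before live CD8+ cells were sorted. No cells were cultured without antigen, so that antigen, cytokines and 24 h of culture cannot be told apart in any comparison with naïve cells.

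Phosphoinositide 3-kinase p110δ is the catalytic subunit that lymphocytes use to turn TCR, CD28 and cytokine receptor signals into the membrane lipid PIP3. PIP3 recruits the kinase AKT, which among other substrates phosphorylates FOXO transcription factors and so removes them from the nucleus, where they maintain genes of quiescence and lymph node homing. The TCR also signals through calcium, RAS and the NF-κB pathway, which do not depend wholly on this lipid. A naïve CD8+ T cell that meets antigen enlarges, makes ribosomes, enters the cell cycle and acquires cytokines, granzymes and new receptors.

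Expression values were FPKM, fragments scaled to exon length and library size, which can be compared between genes because they are divided by length. Changes are given as log2 fold changes of FPKM + 0.1 with their standard error (SE), from 1 limma fit of the 9 libraries with Benjamini-Hochberg adjusted p-values over all genes. The call of a changed gene required more than 2-fold in either direction (a ratio above 2 or under 0.5) and an adjusted p below 0.05. Replicates within a group were close, with Pearson r across genes from 0.99 to 0.993 for naïve and from 0.989 to 0.994 for TCR+PI3Kdi cells. The cells of both groups carried the mRNA of their label. CD8 T cell markers summed to 4426.5, 4795.1 and 4687.5 FPKM in naïve cells and to 1475.8, 1551.3 and 1369.0 FPKM with TCR+PI3Kdi, for 9 measured genes of 12. Of these 9 genes 8 were lower than in naïve cells, led by Cd8b1, the beta chain of the CD8 co-receptor, and none of the 9 was called between TCR+PI3Kdi and TCR. Cd4 was not among the genes analysed here. In bulk RNA, fewer cells of a kind and less RNA per cell cannot be told apart.

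Activation under the inhibitor changed 5063 genes against naïve cells, which is 45.0% of those tested. Of these 2659 were higher (23.6% of all genes) and 2404 lower (21.3%). Called genes moved by a median of 1.73 on the log2 scale, direction aside. Scaling the libraries to equal medians shifted the median over all genes from 0.00 to 0.14 on the log2 scale and gave 2989 higher and 2104 lower genes. As a reference, TCR activation without the inhibitor changed 5489 genes (48.7%), 2817 higher (25.0%) and 2672 lower (23.7%), and the inhibitor changed 579 genes (5.14%) between the activated groups, 342 higher (3.04%) and 237 lower (2.10%). These comparisons share libraries, so counts that combine them are descriptions of how genes were sorted and carry no test. The plot of gene levels in naïve and TCR+PI3Kdi cells shows how far genes lay from equal levels on both sides of the diagonal.

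**Figure D1:**
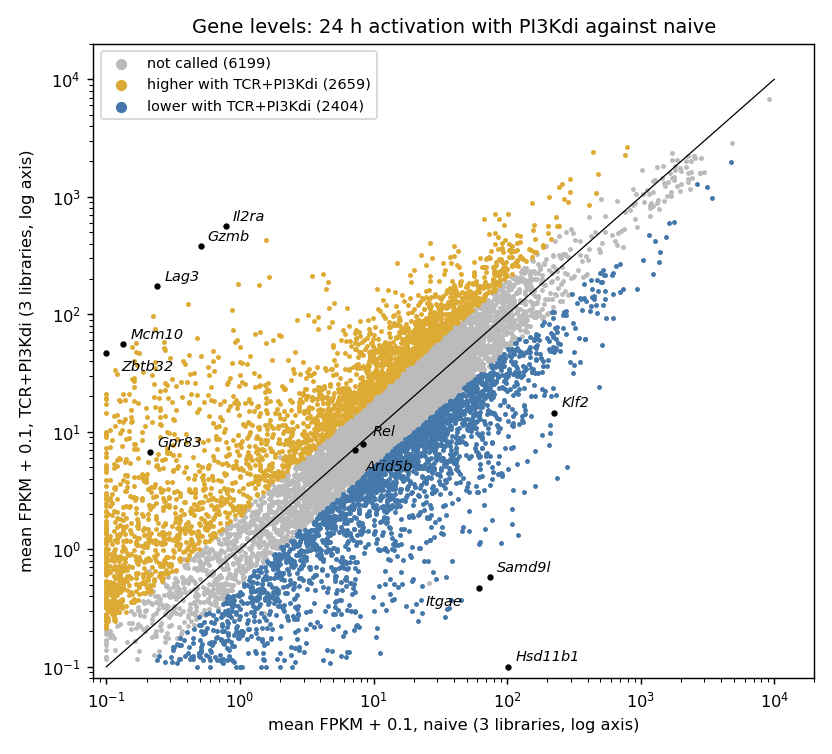
Mean FPKM + 0.1 of 11262 genes in naïve cells (x axis) and in TCR+PI3Kdi cells (y axis), 3 libraries each, both axes logarithmic, with the line of equal levels. Yellow points are the 2659 genes called higher, blue points the 2404 called lower and grey points those not called, and 12 genes of the text are named.

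The genes were sorted by where they stood with the inhibitor. A gene was taken to have reached the activated level if it was called against naïve cells and the 95% interval of its difference from TCR cells lay within 2-fold. This held for 2004 of the 2659 raised genes (75.4%) and for 1715 of the 2404 lowered genes (71.3%). Reaching this level does not mean equality with TCR cells. The log2 differences from TCR cells ran from -0.76 to 0.70 in these raised genes and from -0.79 to 0.77 in these lowered genes. For another 451 raised and 476 lowered genes the interval was too wide or lay partly outside 2-fold without a call against TCR cells. A gene was taken to have remained within 2-fold of the naïve level if TCR activation moved it, the inhibitor was called in the opposite direction, and the 95% interval of its difference from naïve cells lay within 2-fold. Only 29 of the 2817 genes raised by TCR activation (1.03%) and 39 of the 2672 lowered genes (1.46%) met these conditions. A further 112 raised genes (3.98%) and 154 lowered genes (5.76%) were called in all comparisons and stood between the 2 levels.

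The largest rises against naïve cells were in genes that naïve cells scarcely expressed. Il2ra, the alpha chain of the IL-2 receptor, had 0.63, 0.54 and 0.87 FPKM in naïve cells and 557.76, 529.21 and 603.24 FPKM with TCR+PI3Kdi. Cells without the inhibitor had 651.75, 516.98 and 501.49 FPKM, so that the activated groups overlapped while naïve cells lay far below. The log2 fold change of Il2ra against naïve was 9.52 (SE 0.15, limma adjusted p = 2.9e-12), and against TCR it was 0.03 (SE 0.15, limma adjusted p = 0.93). Lag3, an inhibitory receptor that binds MHC class II, rose from 0.15, 0.11 and 0.16 FPKM to 211.18, 184.81 and 124.85 FPKM. Mcm10, a factor that starts DNA replication, rose from 0.02, 0.06 and 0.02 FPKM to 58.17, 55.17 and 53.34 FPKM. Both reached the range of the TCR cells, in which Lag3 was at 220.96, 155.56 and 90.07 FPKM and Mcm10 at 53.36, 60.16 and 58.56 FPKM. The replication clamp associated factor Pclaf, listed as 2810417H13Rik, also reached the activated level, at 96.5 FPKM on average. Its libraries still lay below all TCR libraries, which had 125 FPKM on average. Gzmb, which encodes the protease granzyme B, had a log2 fold change of 9.66 (SE 0.40, limma adjusted p = 2.5e-09), yet stood below the TCR cells in every library. Its values with TCR+PI3Kdi were 534.90, 332.07 and 270.68 FPKM, against 4049.22, 2904.16 and 2488.05 FPKM without the inhibitor and 0.11, 0.53 and 0.58 FPKM in naïve cells. Zbtb32, a repressor of the BTB zinc finger family, was listed at 0 in all naïve libraries and at 52.93, 45.24 and 42.46 FPKM with TCR+PI3Kdi, below the 235.00, 193.23 and 176.37 FPKM of the TCR cells.

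The largest falls took well expressed genes to nearly none. Hsd11b1, an enzyme that regenerates active glucocorticoid, had 106.84, 105.62 and 91.42 FPKM in naïve cells and was listed at 0 in all 3 TCR+PI3Kdi libraries. Itgae, the integrin αE chain known as CD103, fell from 60.90, 63.12 and 61.61 FPKM to 0.21, 0.31 and 0.58 FPKM. Its log2 fold change was -7.13 (SE 0.31, limma adjusted p = 3.7e-09), and the TCR cells lay in the same range. The interferon induced genes Samd9l, Rtp4 and Gm14446 also fell, with log2 fold changes of -7.18, -7.11 and -7.04, as did Scg5, with -7.10. Of these 6 genes, Hsd11b1 and Samd9l were lower still with the inhibitor than without it.

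Gene lists describe which programs proceeded. Among all genes 23.6% were higher and 21.3% lower than in naïve cells, and 3.04% were higher and 2.10% lower than in TCR cells. The plot of called shares in each list gives them for the comparison with naïve cells beside that with TCR cells.

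**Figure D2:**
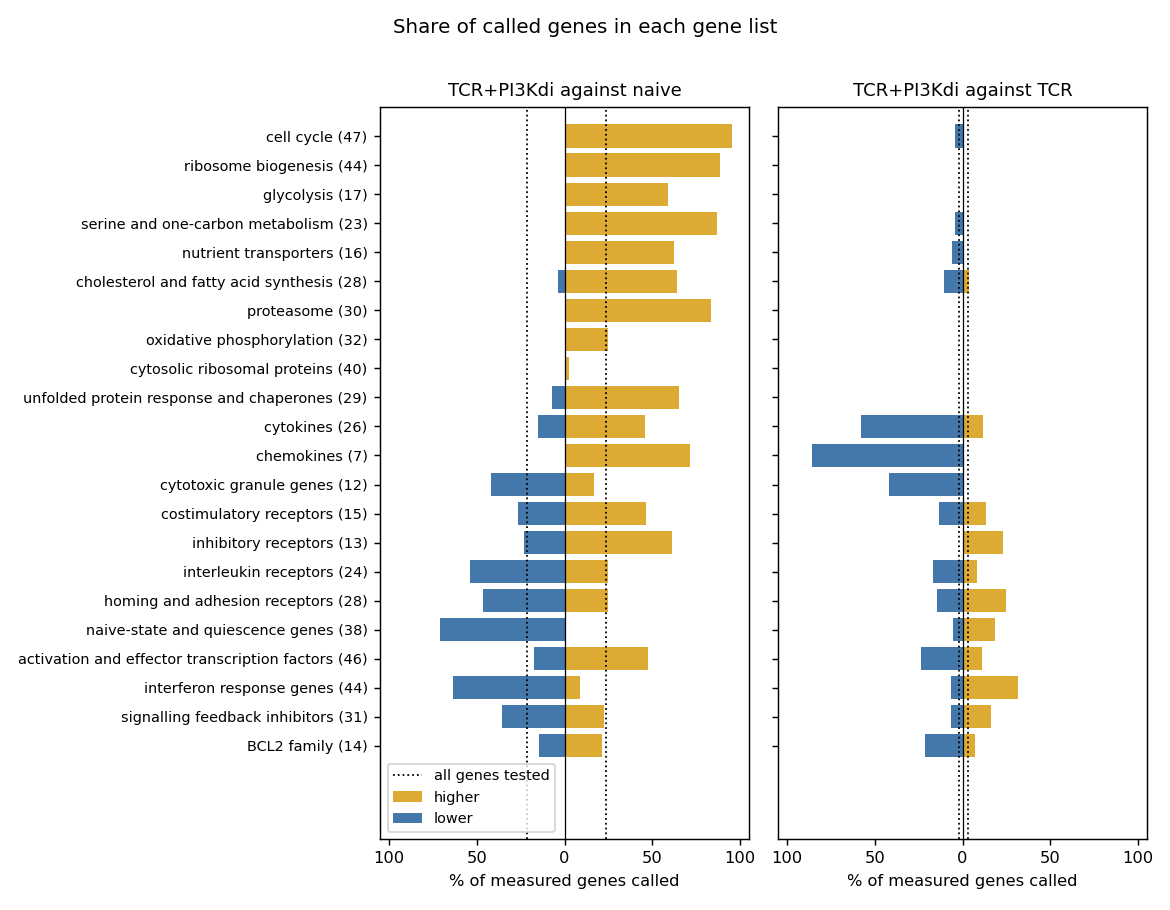
Share of the measured genes of each list (their number in brackets) that were called higher (right, yellow) or lower (left, blue), for TCR+PI3Kdi against naïve cells in the left panel and against TCR cells in the right panel. Dotted lines mark the shares among all 11262 genes, and the bars of cell cycle, ribosome biogenesis and proteasome genes reach far past these lines in the left panel and are at or near 0 in the right panel.

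Most measured genes of growth and division were raised. Of 47 measured cell cycle genes 45 were higher than in naïve cells, none was lower, and the median log2 fold change was 4.21, against 0.00357 over all genes. Of these 45 genes 36 reached the activated level by the interval rule, a share near the 75.4% of all raised genes. Pcna, the sliding clamp of DNA polymerase, rose from 94.5 ± 4.09 (SD, n = 3) to 571 ± 25.6 FPKM and Cdk4, the kinase of early G1, from 104 ± 5.26 to 350 ± 5.25 FPKM. The 2 members that were not called were the D type cyclins Ccnd2 and Ccnd3. A pair of mitotic kinases stood short of the TCR level. Plk1 had 26.5 ± 7.83 FPKM with TCR+PI3Kdi and 54.4 ± 12.8 FPKM with TCR, a log2 difference of -1.06 (SE 0.23, limma adjusted p = 0.0092), and Aurka had 21.5 ± 4.28 and 43.9 ± 7.85 FPKM. Both differences lay close to the fold limit, and of these 2 calls against TCR cells 0 were left without TCR+PI3Kdi replicate 2.

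Ribosome biogenesis genes, which encode factors for making and assembling ribosomal subunits, followed the same course, with 39 of 44 higher and none lower, and the list median on the log2 scale was 1.66. All 39 reached the activated level by the interval rule, although the list as a whole stood lower than with TCR. Its sum was 8050.2, 8083.0 and 8421.1 FPKM with TCR+PI3Kdi and 8913.5, 9880.4 and 10297.4 FPKM with TCR. Npm1, a nucleolar chaperone, rose from 442 ± 43.3 to 2385.1 ± 50 FPKM and Ncl, nucleolin, from 102 ± 4.02 to 720 ± 29.8 FPKM. In contrast, the mRNAs of cytosolic ribosomal proteins moved little, with 1 of 40 called and a median of -0.27. Proteasome subunits were higher in 25 of 30 cases and all 25 reached the activated level. Chaperones and genes of the unfolded protein response were higher in 19 of 29 cases and lower in 2. Hspd1, the mitochondrial chaperonin HSP60, rose from 81.4 ± 7.88 to 718 ± 33.1 FPKM.

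Metabolic lists differed in how many of their genes rose. Serine and one-carbon metabolism had 20 of 23 genes higher (median on the log2 scale 2.09), and glycolysis had 10 of 17 higher (median 1.51), of which 19 and 6 reached the activated level. Among all genes 23.6% were higher, and 75.4% of all raised genes reached the activated level. Ldha, lactate dehydrogenase, rose from 258 ± 20.5 to 1279.3 ± 118 FPKM. Mthfd2, a mitochondrial folate enzyme, was the only one-carbon gene called lower with TCR+PI3Kdi than with TCR, at 88.6 ± 9.8 against 177 ± 12.3 FPKM, although it was raised from 15.5 ± 2.23 FPKM in naïve cells. Its difference from TCR cells lay at the fold limit, and the call was lost with a pseudocount of 1 and without TCR replicate 1 or 2 or TCR+PI3Kdi replicate 2 or 3. Nutrient transporters were higher in 10 of 16 cases, and 6 of the 10 reached the activated level, a smaller share than the 75.4% of all raised genes. Slc7a5, the large neutral amino acid transporter, rose from 18.1 ± 1.52 to 121 ± 15 FPKM, and the TCR cells had 220 ± 71.4 FPKM. Oxidative phosphorylation genes were higher in 8 of 32 cases, a share near that of all genes.

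Lipid synthesis was split. Of 28 genes for cholesterol and fatty acid synthesis 18 were higher than in naïve cells, 10 of them at the activated level, and 1, Acss2, was lower. Among all genes 23.6% were higher and 21.3% lower, and 75.4% of all raised genes reached the activated level. Fasn, fatty acid synthase, reached the activated level at 88.6 ± 2.14 FPKM, from 27.1 ± 4.04 FPKM in naïve cells. Scd2, a desaturase that makes monounsaturated fatty acids, remained at 31 ± 14.5 FPKM with the inhibitor, beside 31.5 ± 4.95 FPKM in naïve and 111 ± 55.2 FPKM in TCR cells. In 5 of the alternative fits Scd2 no longer met the rule for staying within 2-fold of naïve. The related Scd1 had 0.16, 0.53 and 0.29 FPKM in naïve cells, 1.43, 0.16 and 0.60 FPKM with TCR+PI3Kdi and 12.95, 4.66 and 5.08 FPKM with TCR. Its 95% interval against naïve cells was too wide for the 2-fold rule.

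A small group of genes stayed within 2-fold of the naïve level. Among the 29 that TCR activation raised, the log2 difference of TCR+PI3Kdi from naïve ran from -0.44 to 0.74 with a median of 0.22. The median rise without the inhibitor was 1.81. In 17 of the 29 genes the TCR+PI3Kdi and naïve libraries overlapped, and in 28 the TCR+PI3Kdi and TCR libraries did not. Within 2-fold does not mean equal, since 10 of the 29 had an adjusted p under 0.05 against naïve cells. With the narrower limit of 1.5-fold for all calls and intervals, 3 of the 29 still met the rule (Rel, Heg1 and Tubb2b), and these were picked out after their values were seen. The count of 29 fell to 19 without naïve replicate 1 and to 19 without TCR+PI3Kdi replicate 2.

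The chemokine gene Ccl9 had the largest rise without the inhibitor of the 29, but at a low level, with 1.28, 1.87 and 1.59 FPKM in TCR cells against 0.02, 0.03 and 0 FPKM with TCR+PI3Kdi and 0 in all naïve libraries. Among the more abundant of the 29 were protease inhibitors of the serpin family. Serpinb9, an inhibitor of granzyme B that shields killer cells from their own protease, had 11.23, 8.55 and 10.02 FPKM in naïve cells, 9.33, 8.56 and 6.62 FPKM with TCR+PI3Kdi and 86.10, 135.40 and 95.50 FPKM with TCR. The naïve and TCR+PI3Kdi ranges overlapped, and all TCR libraries lay above both. The log2 difference was -0.28 (SE 0.18, limma adjusted p = 0.17) from naïve and -3.66 (SE 0.18, limma adjusted p = 1.4e-06) from TCR cells. Serpinb6b, from the same family, had 14.34, 11.33 and 9.53 FPKM in naïve cells, 10.40, 10.37 and 7.12 FPKM with TCR+PI3Kdi and 85.04, 132.50 and 77.98 FPKM with TCR. Serpin genes have close relatives, and reads shared between copies could have been divided differently by the counting. Lad1, an anchoring filament protein, had 1.34, 1.20 and 1.83 FPKM in naïve, 0.92, 0.99 and 2.06 FPKM in TCR+PI3Kdi and 12.66, 17.30 and 24.74 FPKM in TCR cells. It no longer met the rule without naïve replicate 1 or 2 or TCR+PI3Kdi replicate 3.

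Cd44, the hyaluronan receptor by which activated T cells are commonly recognised, had 7.10, 7.55 and 8.02 FPKM in naïve cells, which were sorted for low CD44 protein. With TCR+PI3Kdi it had 8.34, 9.67 and 13.59 FPKM, and with TCR 46.18, 41.55 and 47.14 FPKM. The inhibitor libraries lay above all naïve libraries and below all TCR libraries, and the log2 difference from naïve was 0.45 (SE 0.15, limma adjusted p = 0.02). Since sorting set the naïve level, that difference is given as a value only. Fam129a, a regulator of translation under stress, had 3.97, 4.95 and 9.41 FPKM with TCR+PI3Kdi against 4.17, 4.61 and 4.19 FPKM in naïve and 16.26, 18.00 and 23.97 FPKM in TCR cells. It no longer met the rule in 8 of the alternative fits, 6 of which left out 1 library.

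Transcription factors of the NF-κB and STAT families were among these 29 genes. Rel, the NF-κB subunit c-Rel, had 9.21, 8.07 and 7.65 FPKM in naïve cells, 8.16, 7.76 and 7.59 FPKM with TCR+PI3Kdi and 13.57, 18.65 and 23.67 FPKM with TCR. The inhibitor libraries lay within or just under the naïve range, with a log2 difference of -0.08 (SE 0.17, limma adjusted p = 0.68). Nfkb1, the gene of p105 and p50, was at 75.1 ± 3.27 FPKM in naïve, 95.8 ± 17.6 FPKM in TCR+PI3Kdi and 254 ± 21.3 FPKM in TCR cells. Nfkb2, the gene of p100 and p52, was at 25.6 ± 2.75, 42.7 ± 1.95 and 92.8 ± 1.41 FPKM in the same order. In Nfkb1 and Nfkb2 the TCR+PI3Kdi libraries were above all naïve libraries, by 0.34 (SE 0.12, limma adjusted p = 0.025) and 0.74 (SE 0.09, limma adjusted p = 1.2e-05) on the log2 scale. Stat5a, a transducer of IL-2 signals, had 24.87, 28.19 and 30.60 FPKM in naïve cells, 35.14, 36.79 and 52.48 FPKM with TCR+PI3Kdi and 111.58, 100.15 and 115.54 FPKM with TCR. With median scaling Nfkb2 and Stat5a no longer met the 2-fold rule. Nfkb2 also lost it without TCR+PI3Kdi replicate 1, and Rel without TCR replicate 3.

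Secreted and surface ligands were also among the 29. Osm, oncostatin M, had 10 ± 0.56 FPKM in naïve, 16.8 ± 0.977 FPKM in TCR+PI3Kdi and 39.3 ± 6.47 FPKM in TCR cells. Its TCR+PI3Kdi libraries lay above all naïve libraries, by 0.74 on the log2 scale (limma adjusted p = 1.2e-04), and it no longer met the 2-fold rule in 10 of 15 alternative fits, the replicate block included. Tnfsf14, the ligand LIGHT, had 5.22 ± 0.796, 3.82 ± 0.464 and 12.2 ± 1.72 FPKM. Cd40lg, the ligand by which T cells engage CD40, was not of this group and stood below the naïve level. It had 9.49, 10.46 and 10.19 FPKM in naïve cells, 4.42, 4.23 and 5.61 FPKM with TCR+PI3Kdi and 31.14, 24.52 and 19.15 FPKM with TCR, with no overlap between any of the groups. The call of Cd40lg against naïve cells was lost with a pseudocount of 1, with median scaling and without TCR+PI3Kdi replicate 2. Il3, a haematopoietic growth factor, was listed at 0 in all naïve libraries, at 0.26, 0.18 and 0 FPKM with TCR+PI3Kdi and at 26.27, 26.16 and 9.09 FPKM with TCR. Its log2 difference from naïve was 1.11 (limma adjusted p = 0.056), which a replicate block brought under the threshold (limma adjusted p = 0.014). In all, 22 raised genes like Il3 and Scd1 were not called against naïve cells but had intervals too wide for the 2-fold rule.

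**Figure D3:**
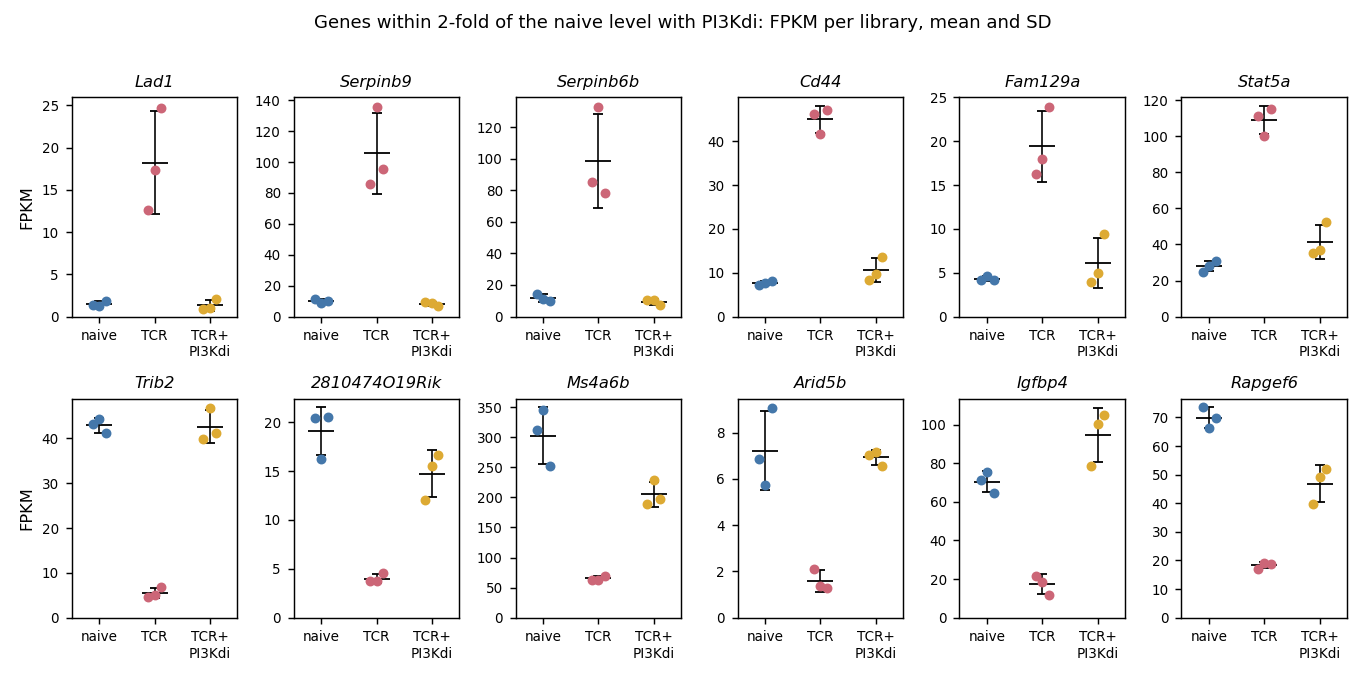
FPKM in each library (points) with mean and SD (black, n = 3) for naïve, TCR and TCR+PI3Kdi cells, for the 6 largest rises (top row) and 6 largest falls (bottom row) under TCR activation among genes with at least 5 FPKM that stayed within 2-fold of the naïve level with the inhibitor. Each y axis starts at 0, and in all 12 panels the TCR libraries stand apart from the other groups, as with Trib2 at 4.64 to 6.88 FPKM against 39.89 to 46.72 FPKM with the inhibitor.

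Genes that TCR activation lowered and the inhibitor kept within 2-fold of naïve cells numbered 39. Their log2 difference from naïve ran from -0.60 to 0.48 with a median of -0.07, beside a median of -1.48 without the inhibitor. The naïve and TCR+PI3Kdi libraries overlapped in 27 of the 39, in all 39 the TCR+PI3Kdi libraries stood apart from the TCR libraries, and 10 of the 39 had an adjusted p under 0.05 against naïve cells. With the 1.5-fold limit 16 of the 39 met the rule, among them Trib2, Arid5b, Arap2, Cd53, Maml3 and Rab43.

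Trib2, a pseudokinase that binds AKT and ubiquitin ligases, had 43.20, 44.33 and 41.15 FPKM in naïve cells, 39.89, 46.72 and 41.08 FPKM with TCR+PI3Kdi and 4.64, 5.13 and 6.88 FPKM with TCR. Naïve and inhibitor libraries were interleaved, and the log2 difference between them was -0.01 (SE 0.13, limma adjusted p = 0.93). Against TCR cells it was 2.93 (SE 0.13, limma adjusted p = 1.2e-06). The gene (Entrez 217410) lies on chromosome 12 of mm10 from 15791725 to 15816962. Arid5b, a DNA binding cofactor of histone demethylation, had 6.84, 5.72 and 9.07 FPKM in naïve, 7.04, 7.18 and 6.57 FPKM in TCR+PI3Kdi and 2.12, 1.36 and 1.28 FPKM in TCR cells. Igfbp4, a binding protein for insulin-like growth factors, was above every naïve library with the inhibitor, at 78.77, 100.16 and 104.95 FPKM against 71.26, 75.25 and 64.65 FPKM, and stood at 21.80, 18.75 and 11.72 FPKM with TCR.

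Several of the 39 were lower than naïve cells by a smaller step. Ms4a6b, a tetraspan membrane protein of T cells, had 311.35, 344.84 and 251.71 FPKM in naïve, 189.83, 229.05 and 198.03 FPKM in TCR+PI3Kdi and 63.15, 62.54 and 70.05 FPKM in TCR cells. Rapgef6, an exchange factor for RAP GTPases, had 73.73, 66.36 and 69.71, then 39.60, 49.14 and 51.93, then 17.18, 19.27 and 18.68 FPKM in the same order. In both genes the 3 groups did not overlap. The silencing factor Resf1, listed as 2810474O19Rik, had 19.1 ± 2.43, 14.7 ± 2.44 and 4.01 ± 0.497 FPKM. Ptpn22, a phosphatase that restrains TCR signalling, was at 98.8 ± 10, 67.6 ± 11.5 and 28.3 ± 3.37 FPKM, and Zfp36l1, an RNA binding protein that promotes decay of AU rich mRNAs, at 101 ± 17.1, 70.8 ± 4.4 and 30.2 ± 6.07 FPKM. Inpp4b, a phosphatase of phosphoinositides, was at 23.2 ± 2.14 FPKM in naïve and 28.8 ± 3.08 FPKM in TCR+PI3Kdi cells, and at 10.4 ± 4.22 FPKM in TCR cells, and it no longer met the rule without naïve replicate 2, TCR replicate 1 or TCR+PI3Kdi replicate 1. The leukocyte tetraspanin Cd53 was at 234 ± 33, 241 ± 43.1 and 93.9 ± 13 FPKM. Gimap7 and Gimap9, GTPases that support lymphocyte survival, stood at 63.1 ± 11.7 and 73.3 ± 5.39 FPKM with the inhibitor, against 44.8 ± 2.63 and 88.4 ± 1.89 FPKM in naïve cells.

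The promoters of genes held near the naïve level were searched for the letters GTAAACA, the core that FOXO factors and other forkhead proteins bind, on both strands from 250 bases before to 50 bases after the annotated start. RefSeq promoters (GRCm38, the same build as mm10) were available for 8405 of the 11262 genes, and 257 of these (3.06%) held the letters. Among genes lowered by TCR activation, 3 of the 31 with a promoter (9.68%) that stayed within 2-fold of naïve held them, as did 11 of 110 (10%) of those between the 2 levels. The shares were 41 of 1291 (3.18%) among lowered genes that reached the activated level and 0 of 22 among raised genes that stayed within 2-fold of naïve. These are counts of letters with no test, and a match is not a binding site. The 3 promoters are shown because they belong to genes that TCR activation lowered and the inhibitor kept near naïve. Adam19 (a membrane protease, 4.88 ± 0.846 FPKM in naïve, 6.27 ± 1.26 FPKM in TCR+PI3Kdi and 1.95 ± 0.343 FPKM in TCR cells) lies at chr11:46054252-46054501 on the plus strand for the 250 bases printed. Maml3 (a coactivator of NOTCH, 3.37 ± 0.519, 3.49 ± 0.535 and 1.45 ± 0.116 FPKM) lies at chr3:52105007-52105256 on the minus strand. Rab43 (a small GTPase of membrane traffic, 13.2 ± 1.4, 11.3 ± 0.467 and 5.4 ± 0.54 FPKM) lies at chr6:87809758-87810007 on the minus strand. Each is printed 5′ to 3′ along its gene up to the base before the start used, with the match in capitals. For Adam19 that start, at 46054502, is the 5′ end of the gene. For Maml3 and Rab43 it is an inner start, since the 5′ ends of these genes are at 52105319 and 87812164. All 3 matches read as TGTTTAC, the reverse complement of GTAAACA, and begin 175, 14 and 136 bases before the start used.
Adam19: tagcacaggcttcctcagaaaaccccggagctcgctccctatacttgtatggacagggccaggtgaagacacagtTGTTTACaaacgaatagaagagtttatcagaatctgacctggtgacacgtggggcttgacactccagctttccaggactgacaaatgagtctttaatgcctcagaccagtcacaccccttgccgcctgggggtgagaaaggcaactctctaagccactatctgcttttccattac
Maml3: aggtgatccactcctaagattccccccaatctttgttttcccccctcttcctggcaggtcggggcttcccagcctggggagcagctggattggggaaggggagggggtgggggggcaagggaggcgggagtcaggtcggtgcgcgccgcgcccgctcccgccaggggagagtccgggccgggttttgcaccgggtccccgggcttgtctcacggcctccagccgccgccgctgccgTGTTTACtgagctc
Rab43: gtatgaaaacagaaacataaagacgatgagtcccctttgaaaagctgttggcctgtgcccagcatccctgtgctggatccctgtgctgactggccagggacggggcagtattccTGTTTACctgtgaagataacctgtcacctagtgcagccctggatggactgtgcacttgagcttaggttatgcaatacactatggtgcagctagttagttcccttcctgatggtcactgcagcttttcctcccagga
A κB motif of 10 bases, the site of NF-κB dimers, was likewise searched on both strands and occurred in 39 of 8405 promoters (0.464%). Among the raised genes that stayed within 2-fold of naïve, 1 of 22 held it, beside 1 of 84 (1.19%) of the raised and 2 of 110 (1.82%) of the lowered genes between the levels. That gene was Nfkb2, where it begins at base 11 counted from 1 of its annotated starts and lies ahead of another. The 30 bases around it, at chr19:46305695-46305724 on the plus strand, are shown with the motif in capitals.
Nfkb2: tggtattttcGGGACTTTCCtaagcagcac

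Genes that left the naïve level but stood below the TCR level included cytokines and chemokines. Of 26 measured cytokine genes 12 were higher and 4 lower than in naïve cells, beside 23.6% and 21.3% of all genes. Of these 26, 15 were lower and 3 higher than in TCR cells, beside 2.10% and 3.04% of all genes. Ifng, interferon γ, rose from 0.13, 0.06 and 0.07 FPKM to 30.91, 27.50 and 38.83 FPKM, a log2 fold change of 7.45 (SE 0.16, limma adjusted p = 2.6e-11), but stood 6.08 (SE 0.16, limma adjusted p = 5.9e-09) below TCR cells, which had 1949.79, 2290.03 and 2298.57 FPKM. The chemokine Xcl1, which attracts cross-presenting dendritic cells, was at 0, 0 and 0.33 FPKM in naïve, 3.04, 2.01 and 1.86 FPKM in TCR+PI3Kdi and 178.28, 266.72 and 265.27 FPKM in TCR cells. Lta, lymphotoxin α, rose from 8.24, 8.64 and 12.52 FPKM to 20.82, 28.89 and 45.37 FPKM, against 290.24, 235.31 and 306.42 FPKM with TCR. In each of these genes the 3 groups did not overlap.

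Chemokines as a list had 5 of 7 genes higher than naïve, and 6 of 7 were lower than in TCR cells, beside 23.6% and 2.10% of all genes. With a pseudocount of 1 the count of 5 was 3. Ccl3 rose from 0.0667 ± 0.0577 to 48 ± 18.2 FPKM and Ccl4 from 0.773 ± 0.382 to 110 ± 25.8 FPKM, beside 326 ± 40.7 and 273 ± 73.4 FPKM in TCR cells. Tnf rose from 8.1 ± 0.875 to 24.7 ± 4.59 FPKM, and Lif, leukaemia inhibitory factor, from 0.0667 ± 0.0115 to 56.5 ± 12 FPKM. Il21, a cytokine better known from follicular helper cells, was listed at 0 in naïve cells and was higher with the inhibitor (14.4 ± 6.57 FPKM) than without it (5.94 ± 1.65 FPKM). Cytotoxic granule genes were higher than naïve in 2 of 12 cases and lower in 5, beside 23.6% and 21.3% of all genes. None of the 12 was higher and 5 were lower than in TCR cells, beside 3.04% and 2.10% of all genes. Prf1, perforin, fell from 43.6 ± 1.7 to 6.07 ± 2.92 FPKM, below the 18.1 ± 9.05 FPKM of TCR cells. The secreted signal Wnt10b had 0.91, 0.77 and 1.33 FPKM with TCR+PI3Kdi, between 0.10, 0.07 and 0.11 FPKM in naïve and 12.38, 10.50 and 9.87 FPKM in TCR cells. The tubulin Tubb6 was listed at 0 in naïve cells and had 1.17, 0.76 and 0.45 FPKM with the inhibitor.

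**Figure D4:**
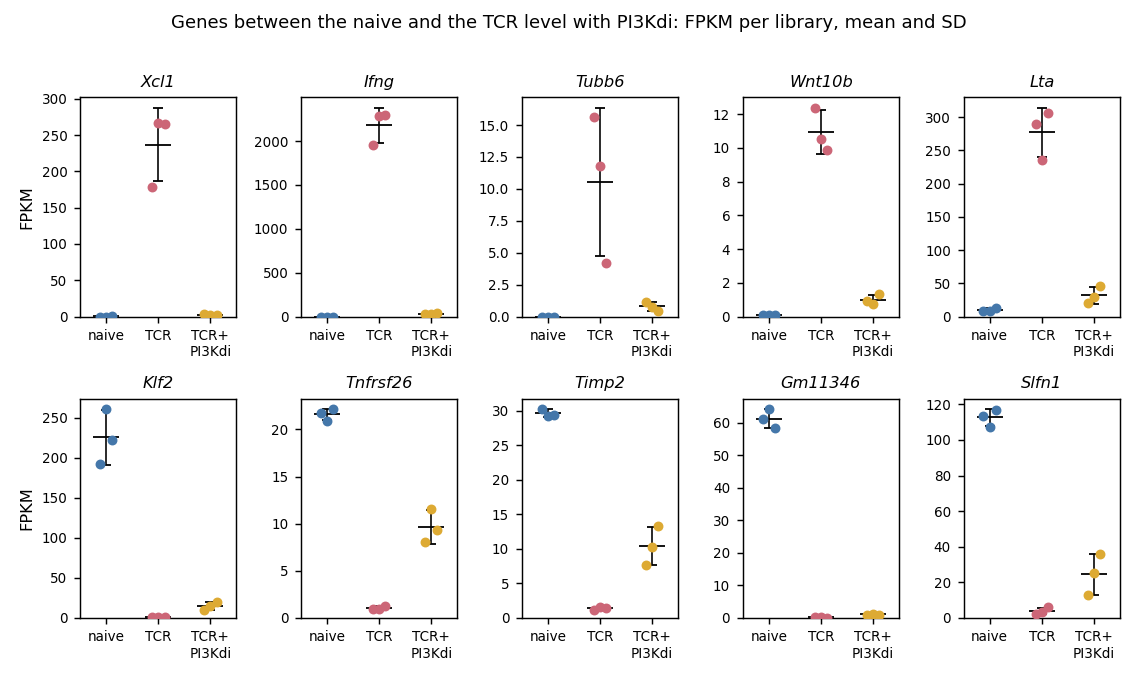
FPKM in each library (points) with mean and SD (black, n = 3) for naïve, TCR and TCR+PI3Kdi cells, for 5 genes that TCR activation raised (top row) and 5 that it lowered (bottom row) and that were called in all comparisons with the inhibitor between the other groups. On these linear axes Ifng and Xcl1 lie close to the naïve level with the inhibitor although they rose, and Tnfrsf26 and Timp2 stand well above the TCR libraries.

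Naïve-state genes fell in activation with the inhibitor, as they did without it. Of 38 measured genes 27 were lower than in naïve cells and none was higher with the deposited scaling, while 25 were lower and 2 higher after scaling libraries to equal medians. TCR activation without the inhibitor lowered 29 of the 38. Compared with TCR cells, 7 of the 38 were higher and 2 lower with TCR+PI3Kdi, beside 3.04% and 2.10% of all genes. Of the 27 lowered genes 18 reached the activated level, a share near the 71.3% of all lowered genes. Tcf7, the gene of TCF1, fell from 946 ± 128 to 166 ± 17.3 FPKM, not far from the 126 ± 25.9 FPKM of TCR cells. Klf2, which maintains quiescence and trafficking receptors, stopped short. It had 192.93, 260.98 and 222.90 FPKM in naïve, 9.33, 14.30 and 19.51 FPKM in TCR+PI3Kdi and 0.39, 0.38 and 1.46 FPKM in TCR cells, with log2 differences of -4.01 (SE 0.40, limma adjusted p = 3.1e-06) from naïve and 4.28 (SE 0.40, limma adjusted p = 5.9e-05) from TCR cells. Slfn1, a schlafen gene of quiescent T cells, had 113.34, 107.49 and 117.08, then 12.61, 25.20 and 35.64, then 2.23, 3.14 and 5.97 FPKM in the same order. Timp2, an inhibitor of metalloproteinases, and the receptor Tnfrsf26 were at 10.4 ± 2.8 and 9.66 ± 1.78 FPKM with the inhibitor, against 29.7 ± 0.594 and 21.6 ± 0.601 FPKM in naïve cells. Dapl1 went further than in TCR cells, from 281 ± 24.4 to 4.92 ± 2.7 FPKM.

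Homing receptors were lower than naïve in 13 of 28 cases, beside 21.3% of all genes. They were higher in 7, a share near the 23.6% of all genes, and with a pseudocount of 1 higher in 4. Compared with TCR cells, 7 of the 28 were higher and 4 lower, beside 3.04% and 2.10% of all genes. Itgb7, the integrin β7 chain of gut homing cells, fell from 345 ± 7.92 to 62.5 ± 3.32 FPKM, and the gut chemokine receptor Ccr9 from 89.4 ± 0.15 to 1.04 ± 0.376 FPKM. Ccr7, the receptor for entry into lymph nodes, had 182 ± 8.69 FPKM in naïve and 198 ± 32.5 FPKM in TCR+PI3Kdi cells, with a log2 difference of 0.11 (95% interval -0.14 to 0.36, limma adjusted p = 0.39). It was not among the 29 raised or 39 lowered genes of the 2-fold rule, which also required calls for TCR activation and against TCR cells. Interleukin receptors were lower than naïve in 13 of 24 cases, beside 21.3% of all genes. They were higher in 6, a share near the 23.6% of all genes. Compared with TCR cells, 2 of the 24 were higher and 4 lower, beside 3.04% and 2.10% of all genes. Il7r, the receptor of the survival cytokine IL-7, fell from 83.6 ± 4.2 to 30.8 ± 6.75 FPKM and was at 9.38 ± 3.24 FPKM in TCR cells, whereas Il2rb, which carries IL-2 and IL-15 signals, reached the activated level at 188 ± 2.93 FPKM.

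Of 46 measured activation transcription factors 22 were higher and 8 lower than in naïve cells, beside 23.6% higher and 21.3% lower among all genes. Irf4, which scales with TCR signal strength, had 1.47 ± 0.255 FPKM in naïve and 425 ± 29.8 FPKM in TCR+PI3Kdi cells, above the 289 ± 16.6 FPKM of TCR cells but within 2-fold. Myc, a driver of growth, rose from 70.6 ± 14.6 to 303 ± 15.2 FPKM. Batf3 and Bhlhe40 rose in part, to 19.2 ± 5.27 and 26.3 ± 4.93 FPKM, against 69.9 ± 17.3 and 106 ± 22.5 FPKM in TCR cells.

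Of 13 inhibitory receptor genes 8 were higher and 3 lower than in naïve cells. Relative to TCR cells 3 of the 13 were higher and none was lower, beside 3.04% and 2.10% of all genes. Ctla4 rose from 0.307 ± 0.212 to 122 ± 34 FPKM, beside 120 ± 85 FPKM in TCR cells. Nt5e, the ecto-enzyme CD73 that makes adenosine, had 5 ± 0.555 FPKM with TCR+PI3Kdi, above 0.79 ± 0.0693 FPKM in naïve and 0.41 ± 0.0693 FPKM in TCR cells. Of 15 costimulatory receptors 7 were higher and 4 lower. In both lists the lowered share was near the 21.3% of all genes. Relative to TCR cells 2 of the 15 costimulatory genes were higher and 2 lower, beside 3.04% and 2.10% of all genes. Tnfrsf9, the receptor 4-1BB, was the one raised gene of that list that stood between the levels, at 23.1 ± 10.1 FPKM. In the other direction, 2 of its genes that TCR activation raised stood above the TCR level with the inhibitor.

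Most interferon response genes were lower than in naïve cells. Of 44 measured genes 28 were lower and 4 higher, beside 21.3% and 23.6% of all genes. TCR activation without the inhibitor lowered 34 of the 44. Compared with TCR cells, 14 were higher and 3 lower with TCR+PI3Kdi, beside 3.04% and 2.10% of all genes. The 4 that were higher than in naïve cells were the GTPase genes Gbp2, Gbp5, Igtp and Iigp1. Other genes of the same GTPase families went the opposite way, since Gbp4, Gbp7, Gbp9, Tgtp1 and Tgtp2 were lower than in naïve cells. The call of Gbp4 was lost with median scaling and without TCR+PI3Kdi replicate 1. Gbp2, a guanylate binding protein, was at 67.5 ± 7.25 FPKM in naïve, 52.5 ± 26.3 FPKM in TCR and 651 ± 167 FPKM in TCR+PI3Kdi cells, a log2 fold change of 3.24 against naïve (SE 0.28, limma adjusted p = 9.5e-07). Isg15, a ubiquitin-like modifier, fell from 25.2 ± 6.67 to 1.74 ± 0.889 FPKM. Irgm2, a regulator of these GTPases, remained within 2-fold of naïve, at 22 ± 1.7 against 22.2 ± 1.42 FPKM, with 10.8 ± 0.562 FPKM in TCR cells. It no longer met the rule in 6 of the alternative fits, a pseudocount of 1 and median scaling among them. After median scaling 27 genes of the list were lower and 6 higher than in naïve cells. The GTPase genes have near-identical copies, and Igtp overlaps exons of Irgm2, and Gbp4 those of Gbp8 and Gbp9, in GENCODE, so reads could have been assigned to either.

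Genes that moved only with the inhibitor were called against both other groups in the same direction, with the 95% interval between TCR and naïve cells inside 2-fold. There were 20 raised and 11 lowered genes of this kind, 0.752% of the raised and 0.458% of the lowered genes, and in all 31 the TCR+PI3Kdi libraries overlapped neither of the other groups. Gpr83, a G protein coupled receptor of regulatory T cells, had 0.10, 0.13 and 0.11 FPKM in naïve, 0.19, 0.15 and 0.20 FPKM in TCR and 4.59, 9.60 and 5.53 FPKM in TCR+PI3Kdi cells. It no longer met this rule in 8 of the alternative fits. Folr4, now named Izumo1r, a folate receptor family member also found on regulatory T cells, had 32.47, 40.45 and 17.93 FPKM with the inhibitor and between 2.70 and 3.73 FPKM in the other 6 libraries. Plac8, a small cysteine rich protein, had 289.45, 360.33 and 234.37 FPKM in naïve, 204.57, 231.58 and 285.08 FPKM in TCR and 998.39, 1027.84 and 1290.88 FPKM in TCR+PI3Kdi cells, the most abundant of the 31. Foxp3, which defines regulatory T cells, had 0.10, 0.19 and 0.19 FPKM in naïve and 0.24, 0.22 and 0.93 FPKM in TCR+PI3Kdi cells and was not called (log2 difference 0.91, limma adjusted p = 0.075). The third of these libraries was the high one, and Foxp3 was called higher without TCR+PI3Kdi replicate 1 or 2.

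Further genes raised only with the inhibitor act in signalling. Malt1, the paracaspase that activates NF-κB, was at 61.9 ± 1.92 FPKM in naïve, 46.5 ± 7.31 FPKM in TCR and 132 ± 24 FPKM in TCR+PI3Kdi cells. Btla, an inhibitory receptor, was at 29.8 ± 2.85, 30.4 ± 1.88 and 66.1 ± 2.44 FPKM in the same order, and Rragd, a GTPase that links amino acids to mTORC1, at 0.653 ± 0.15, 0.527 ± 0.11 and 4.39 ± 0.762 FPKM. Id2, an inhibitor of E proteins, had 37.10, 40.39 and 53.31 FPKM with TCR+PI3Kdi and between 10.78 and 19.59 FPKM elsewhere. Among the 11 lowered genes, Traf1, an adaptor of TNF receptors, had 66.87, 68.28 and 77.15 FPKM in naïve, 60.91, 59.74 and 55.94 FPKM in TCR and 21.58, 24.84 and 25.18 FPKM in TCR+PI3Kdi cells. Myo1g, a myosin of the lymphocyte membrane, had 118.06, 115.44 and 124.21 FPKM in naïve and 47.61, 48.37 and 57.26 FPKM in TCR+PI3Kdi cells, and the log2 difference of TCR from naïve cells was 0.00. Plaur, the urokinase receptor, fell to 3.39, 4.01 and 2.57 FPKM from 11.92, 14.02 and 17.08 FPKM. Klf6, Eomes and Runx2, which encode transcription factors, were also lower with the inhibitor than in both other groups, at 13.4, 5.99 and 0.373 FPKM on average against 32.7, 14.5 and 1.13 FPKM in naïve cells.

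**Figure D5:**
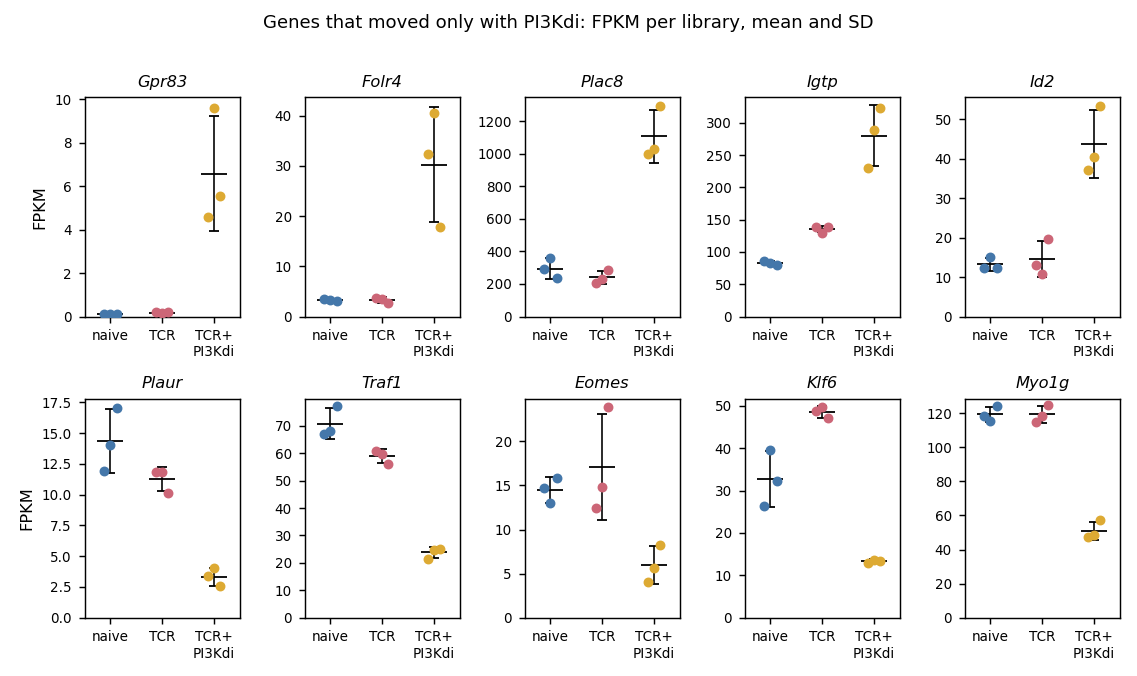
FPKM in each library (points) with mean and SD (black, n = 3) for naïve, TCR and TCR+PI3Kdi cells, for 5 genes raised (top row) and 5 lowered (bottom row) only with the inhibitor. The naïve and TCR means lie within 2-fold of each other in each panel, as with Folr4 between 2.70 and 3.73 FPKM in single libraries, and the TCR+PI3Kdi libraries overlap neither group.

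The target pathway itself was expressed throughout. Pik3cd, which encodes p110δ, had 201, 136 and 95.8 FPKM on average in naïve, TCR+PI3Kdi and TCR cells. The level of its mRNA does not report kinase activity, and no gene of the table measures inhibition directly. Pik3r1, its regulatory subunit, fell from 33.2 to 7.53 FPKM and Foxo1 from 79.6 to 14.4 FPKM, and both reached the activated level. Akt2 rose from 51 to 124 FPKM, while Pik3ca and Pik3cb, the widely expressed p110α and p110β, were not called (12.1 and 11.9 FPKM, and 2.28 and 2.71 FPKM, in naïve and TCR+PI3Kdi cells).

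Markers of other cells moved with the comparison. Beside 21.3% and 2.10% of all genes, 5 of 6 measured B cell markers were lower with TCR+PI3Kdi than in naïve cells and 4 were lower than in TCR cells. Their summed level was 21.2, 28.4 and 23.5 FPKM in naïve, 6.5, 5.2 and 8.4 FPKM in TCR and 3.4, 4.7 and 4.4 FPKM in TCR+PI3Kdi libraries, with Cd79b the most abundant. The count of 4 against TCR cells fell to 2 without TCR replicate 1 or 3 or TCR+PI3Kdi replicate 1 or 3, and with a pseudocount of 1 the counts of lower markers were 1 against naïve and 0 against TCR cells. Beside the same shares of all genes, 4 of 5 measured dendritic cell and MHC class II genes were lower than in naïve cells and 4 lower than in TCR cells. Their sums were 9.1, 37.4 and 17.8 FPKM in naïve, 30.3, 16.0 and 32.5 FPKM in TCR and 4.1, 6.2 and 5.3 FPKM in TCR+PI3Kdi libraries, with Cd74 the most abundant. The count of 4 against naïve cells fell to 2 without naïve replicate 2, without TCR+PI3Kdi replicate 3 and with a pseudocount of 1. The B cell gene Ms4a1, which encodes CD20, had 0.22, 0.91 and 0.40 FPKM in naïve, 0.48, 0.77 and 0.95 FPKM in TCR and 0.11, 0.04 and 0.04 FPKM in TCR+PI3Kdi cells. The part of such cells in other results was not tested.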

How the data were processed

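The authors deposited FPKM for 9 libraries of naïve and activated cells. Per their methods and the submitters' processing notes, stranded mRNA libraries were aligned with STAR (2.5.2b) to mm10, counted per gene with Subread (1.5.1), filtered, TMM normalised with edgeR and divided by exon length, and whether counting used strand is not given in the sources used here. FPKM were rounded to 2 decimals, and blanks were read as 0. Reads per library are not given. The spacing of the lowest values put them roughly at 11.4 M to 14.6 M, from which no limit was drawn. An earlier estimate from the same data differed from this range.

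The limma package (3.58.1, under R 4.3.3) was used to fit log2(FPKM + 0.1) with an intensity trend and without a block, as 3 contrasts of the 3 groups. Since no counts were used, the authors' count model was not repeated. On data simulated from these groups the fit was tested before use. Per the authors' methods each pool of mice was divided between the 3 conditions. Same-numbered libraries were taken to share a pool, which the labels do not state library by library. Their deviations from the group means had a Pearson r of -0.01, -0.02 and 0.03 between naïve and TCR+PI3Kdi, of -0.14, 0.23 and -0.18 between naïve and TCR and of 0.27, 0.2 and 0.51 between TCR and TCR+PI3Kdi, across 10072 genes, which are not independent replicates. The 6 libraries of cytotoxic T cells in the series were not analysed here.

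The gene lists, classes and named genes were chosen with earlier results of these data known. The rule for naming genes covered the 6 largest rises and falls against naïve cells with at least 20 FPKM in the higher group and the same direction in every pair. It also covered the 6 largest in each direction that stayed within 2-fold of naïve, the 5 largest that stood between the levels and the 5 largest that moved only with the inhibitor (each with at least 5 FPKM). From each of 33 lists it took the 3 most abundant members and every member in a class or called between the activated groups, and it added components of the kinase. This rule gave 227 genes, not all of which are given in the text, and no rule fixed which were left out. Other list members named in the text, and members of the 2-fold and inhibitor-only classes outside the rule, were picked after their values were seen. Alternatives were a pseudocount of 1 or 0.01, genes with a mean of at least 1 FPKM, median scaling, a replicate block, no intensity trend, the compared groups alone, a fold limit of 1.5 and leaving out each library. Promoters came from the RefSeq annotation of GRCm38.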

Additional observations from a re-analysis of the deposited data

How the results depend on the processing

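The counts of genes higher (2659) and lower (2404) than in naïve cells and of raised (2004) and lowered (1715) genes that reached the activated level moved by less than 1.5 times under every alternative run, including the replicate block (2664, 2407, 2051 and 1755) and each left-out library (2634 to 2678, 2358 to 2465, 1867 to 2030 and 1561 to 1749). With the fold limit of 1.5 the genes at the activated level were partly others (1969 raised, 1274 of them shared with the 2004, and 1559 lowered, 853 shared with the 1715). The 29 raised genes within 2-fold of naïve became 19 with a pseudocount of 0.01, 15 with a fold limit of 1.5, which also narrows the interval, and 19 to 32 without single libraries. With a pseudocount of 1 there were 41, of which 21 were shared with the 29. The 39 lowered genes became 22 with a pseudocount of 1 and 32 to 44 without single libraries, and the 11 genes lowered only with the inhibitor became 7 with a pseudocount of 1 and 8 to 16 without single libraries. The cause was not tested. Of the 20 genes raised only with the inhibitor 16 to 29 were found without single libraries. Membership moved more than counts: Osm lost its class in 10 of 15 alternative fits, Il18rap in 9, Fam129a and Gpr83 in 8 each, Irgm2 and Tfrc in 6 each and Scd2, Zbtb46 and Pdgfrb in 5 each. Of 163 named genes called against naïve cells 26 lost the call in at least 1 alternative, as did 46 of 147 called against TCR cells, and none turned its direction. The replicate block changed the call of Il3 against naïve cells and no other named gene. With 3 libraries a group, exact permutation tests could not go below p = 0.1.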

Other observations

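Genes of the BCL2 family and feedback inhibitors were measured beside the programs above. Of 14 BCL2 family genes 3 were higher and 2 lower with TCR+PI3Kdi than in naïve cells, beside 23.6% higher and 21.3% lower among all genes. Bcl2l1, which encodes the survival protein BCL-XL, rose from 6.41 ± 0.417 (SD, n = 3) to 43.9 ± 13.1 FPKM and stood below the 123 ± 20.4 FPKM of TCR cells. Bcl2 was at 14.3 ± 0.93 FPKM in naïve, 14 ± 3.09 FPKM in TCR and 27.8 ± 1.78 FPKM in TCR+PI3Kdi cells, a log2 difference of 0.95 from naïve, just under the fold limit. Mcl1 had 122 and 94.2 FPKM in naïve and TCR+PI3Kdi cells and was not called.

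Of 31 signalling feedback inhibitors 7 were higher, a share near that of all genes, and 11 lower than in naïve cells. Socs2, a suppressor of cytokine signalling, was higher with the inhibitor (28.2 ± 11 FPKM) than without it (4.11 ± 1.25 FPKM) and was at 0.0567 ± 0.0252 FPKM in naïve cells. Dgka, a kinase that removes diacylglycerol and is a known brake of TCR signals, fell from 470 ± 30 to 102 ± 14.8 FPKM, against 21.2 ± 1.92 FPKM in TCR cells.

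Of the remaining marker lists, 2 genes each of CD4 T cells, of monocytes and macrophages and of stromal cells were measured, 1 of gamma delta T cells and none of NK cells, granulocytes or erythroid cells. Of the CD4 T cell genes Zbtb7b was higher than in naïve cells, and their summed level was 0.1, 0.4 and 0.3 FPKM in naïve, 0.8, 0.7 and 0.7 FPKM in TCR and 1.4, 1.4 and 1.5 FPKM in TCR+PI3Kdi libraries. Its call was lost with a pseudocount of 1. Pecam1, which naïve T cells also express, fell from 60.6 to 6.24 FPKM. Of 12 genes linked to tissue dissociation 3 were higher, a share near that of all genes, and 5 lower than in naïve cells.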
